A study of Homo sapiens with 8 samples.

Results

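Integrins are the receptors by which cells hold on to the matrix around them. Each receptor pairs 1 alpha with 1 beta subunit. Most of them tie the matrix to actin filaments through talin and kindlin, and the receptor made of ITGA6 and ITGB4 ties laminin to keratin filaments through plectin. Subunits that find no partner are held back inside the cell, so the set of subunits a cell makes sets the receptors it can show. Described here are the 9 subunits ITGA2, ITGA3, ITGA5, ITGA6, ITGAV, ITGB1, ITGB3, ITGB4 and ITGB5, chosen by name among the 13546 genes of the deposited count table. All 9 are in the table. None was chosen through a threshold on its values, but earlier results of these data were known when they were chosen.

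RNA was sequenced from 4 tumours labelled CDK4KO and 4 labelled CDK4WT, which grew from injected MDA-MB-231 cells in nude mice, hosts that lack T cells but keep their vessels, platelets, macrophages and fibroblasts. MDA-MB-231 is a long-established line of human breast cancer cells of the triple-negative kind, and both genotypes were grown in RPMI with serum. CDK4 encodes a kinase that works with D-type cyclins on the RB protein. The labels do not say how CDK4 was disrupted, whether the knockout cells are 1 clone, how long the tumours grew or whether each came from a separate mouse, so p-values measure the spread between these libraries. The series title concerns CDK4 and actomyosin contractility, the pulling force that integrins pass to the matrix.

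CDK4KO libraries held 30057019 to 33307113 counts and CDK4WT libraries 27840883 to 33617977. CDK4 mRNA stood at 111, 119, 125 and 134 CPM, the reads of a gene scaled to a common library size, in CDK4KO replicates 1 to 4, against 115, 107, 116 and 112 CPM in CDK4WT replicates 1 to 4, so the mRNA gives no check of the genotype. All 9 tumour cell markers were measured, and their summed level was 12060 to 16500 CPM in CDK4KO and 13790 to 16310 CPM in CDK4WT, with a median log2 fold change of -0.08, 2 positive and 7 negative. VIM and CD44 averaged 9188 CPM ± 1381 and 542 CPM ± 51.4 in CDK4KO, against 9818 CPM ± 1153 and 620.5 CPM ± 26.3 in CDK4WT (SD, n = 4 each). S100A4, of the same list, stood at 349.9 CPM ± 43.6 in CDK4KO and 262 CPM ± 16.97 in CDK4WT without overlap (log2 fold change 0.42 ± 0.09, edgeR adjusted p = 0.113; DESeq2, 0.00202; limma voom, 0.0377). Of the receptors whose lack defines triple-negative cancer, ERBB2 stood at 103 CPM ± 6.57 in CDK4KO and 98.7 CPM ± 2.52 in CDK4WT. ESR1 and PGR were looked for but not found in the count table. CDK4KO replicate 1 stood apart on the second principal component, at -31.27 against -1.49 to 9.54 in the other libraries, and CDK4KO replicates 1 and 4 had the lowest mean correlations with their own genotype (0.985 and 0.986).

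No integrin subunit passed the test between the genotypes. Over all 13546 genes edgeR's quasi-likelihood test called 8 at an adjusted p of 0.05, or 0.0591% (0.0443% higher and 0.0148% lower in CDK4KO), and 0 of the 9 subunits. At an unadjusted p of 0.05 there were 3 of the 9, with ITGB3 and ITGA6 higher and ITGB5 lower in CDK4KO, where 13.0% of all genes had such a p (6.64% higher and 6.33% lower). By DESeq2, which called 2.33% of all genes, the count was 1 of 9 (ITGB3), and by limma voom with library quality weights, which called 2.37%, it was 0. The genotypes did not overlap in 1 of the 9 subunits (ITGA6, higher in CDK4KO) and in 7.68% of all genes (3.87% higher and 3.81% lower). The median log2 fold change of the 9 was 0.007, with 5 positive and 4 negative, against 0.004 over all genes, of which 51.2% were positive.

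**Figure D1:**
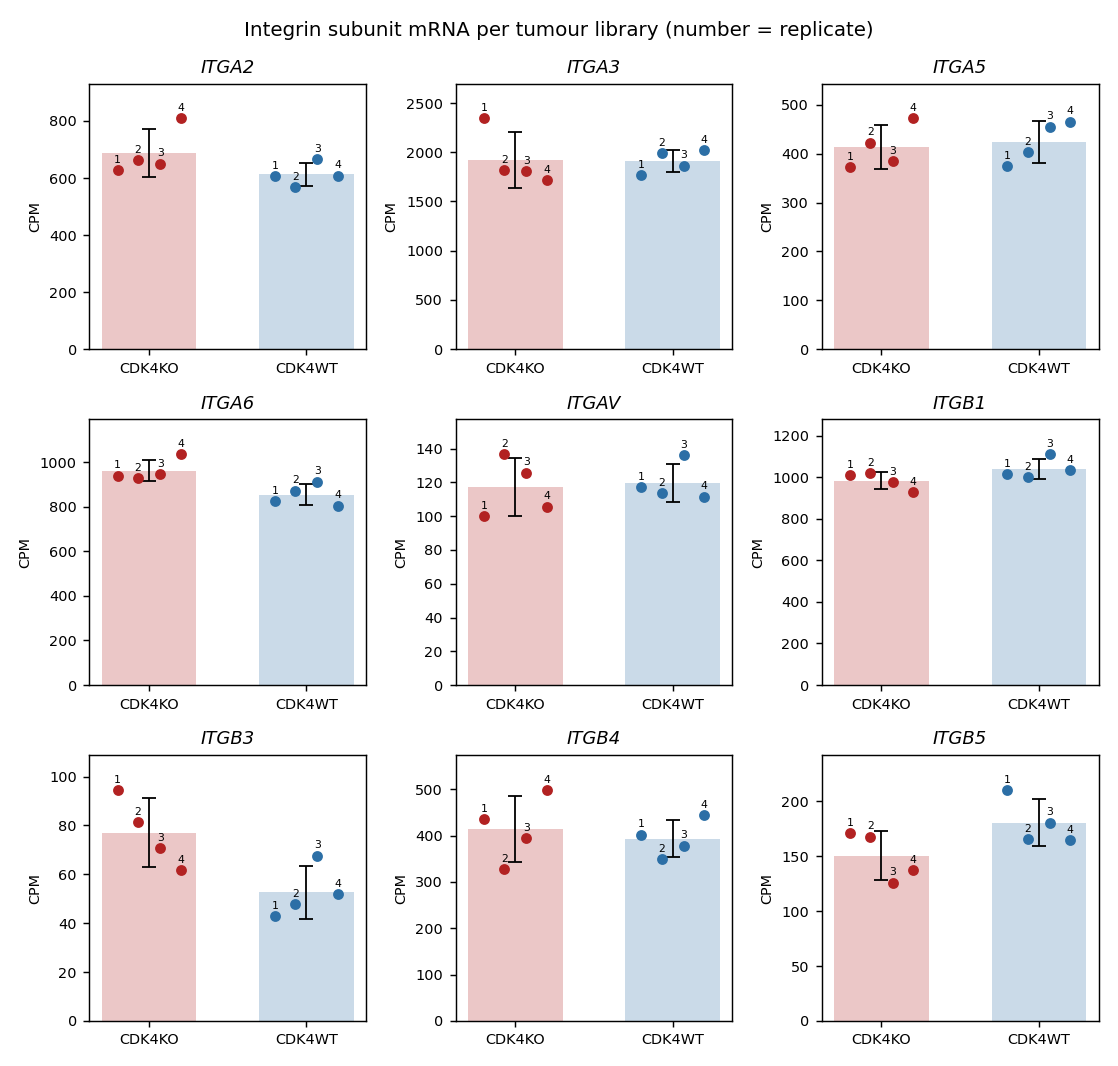
CPM of each of the 9 integrin subunits in the 8 tumour libraries (points, numbered by replicate), with the mean (bar) and SD (error bar) of 4 libraries for CDK4KO and CDK4WT. ITGA6 is the subunit in which all CDK4KO points, 931 to 1037 CPM, lie above all CDK4WT points, 806 to 913 CPM. In ITGB3 the lowest CDK4KO library lies below the highest CDK4WT library.

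Every subunit was deeply covered, with 1350 reads for ITGB3 in the shallowest case and 68573 for ITGA3 in the deepest, and the spread between tumours, not counting, limits precision. To compare subunits with each other, CPM was divided by the length of each gene's annotated exons in kilobases (CPM per kb). On that scale the 9 fell into a high, a middle and a low tier. ITGA3, a laminin receptor subunit, was highest, at a mean level of 196 CPM per kb ± 29.2 in CDK4KO and 195 CPM per kb ± 11.8 in CDK4WT (SD, n = 4 each). ITGB1, the beta subunit shared by most of these receptors, followed at 164 CPM per kb ± 6.99 in CDK4KO and 173 CPM per kb ± 8.24 in CDK4WT. ITGA6, the other laminin receptor subunit, came next at 147 CPM per kb ± 7.54 in CDK4KO and 131 CPM per kb ± 7.31 in CDK4WT. Laminin receptor subunits and their shared beta chain thus filled the top of the order in both genotypes.

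The middle tier held ITGA2, ITGB4 and ITGA5. ITGA2, a collagen receptor subunit, had a mean level of 86.9 CPM per kb ± 10.4 in CDK4KO and 77.4 CPM per kb ± 5.05 in CDK4WT. ITGB4, which pairs with ITGA6 alone and carries the long tail that binds plectin, had 61.3 CPM per kb ± 10.6 in CDK4KO and 58.2 CPM per kb ± 5.95 in CDK4WT. ITGA5, the fibronectin receptor subunit, had 54.5 CPM per kb ± 5.92 in CDK4KO and 56.01 CPM per kb ± 5.71 in CDK4WT. ITGB4 and ITGA5 could not be ordered, since their ranges overlapped in both genotypes.

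The low tier held the subunits of the alpha-v receptors, which bind ligands with an Arg-Gly-Asp motif such as fibronectin and vitronectin. ITGB5 had a mean level of 23.4 CPM per kb ± 3.47 in CDK4KO and 28.0 CPM per kb ± 3.30 in CDK4WT. ITGB3 had 17.6 CPM per kb ± 3.22 in CDK4KO and 12.0 CPM per kb ± 2.44 in CDK4WT. ITGAV, the alpha subunit with which both of them can pair, had 14.3 CPM per kb ± 2.08 in CDK4KO and 14.6 CPM per kb ± 1.35 in CDK4WT. The ranges of ITGB3 and ITGAV overlapped in both genotypes, and those of ITGB5 and ITGB3 overlapped in CDK4KO. At the top, ITGA3 and ITGB1 overlapped in CDK4WT but not in CDK4KO, and ITGB1 and ITGA6 in CDK4KO but not in CDK4WT. ITGA6 and ITGA2, ITGA2 and ITGB4, and ITGA5 and ITGB5 were separate in both genotypes.

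**Figure D2:**
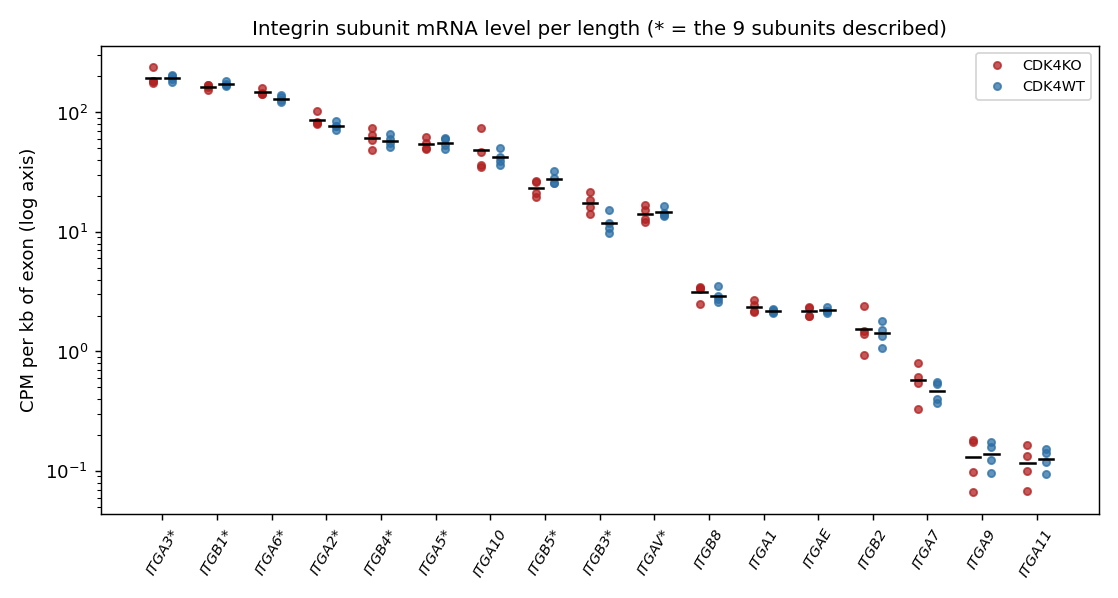
CPM per kb of exon (log axis) of the 17 measured integrin subunits in each of the 4 CDK4KO and 4 CDK4WT libraries, with group means as bars and the 9 subunits described marked by a star. Levels run from 196 CPM per kb for ITGA3 to 14.4 CPM per kb for ITGAV among the 9, as means over all 8 libraries.

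The order depends on the length used. Per longest annotated coding transcript, ITGA5 had a mean of 94.2 CPM per kb over the 8 libraries and stood above ITGA2, at 82.6, and ITGB4, at 68.3. ITGB3 is the least certain, because 51.6% of its exon bases are shared with AC068234.1, an annotated gene on the same strand, and how reads in shared exons were counted is not given in the sources used here. AC068234.1 itself is not in the count table. With the whole count of ITGB3 divided by its unshared bases alone, its mean was 30.5 CPM per kb, above both ITGB5 and ITGAV. That level holds only if reads in shared exons were left out of its count. Comparisons of ITGB3 between genotypes use 1 length for both and do not carry this uncertainty about level, but a change of the overlapping gene cannot be told apart from one of ITGB3.

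mRNA for both subunits of 8 heterodimers known for these genes was present in every library. These levels measure neither protein nor pairing, and in bulk RNA fewer cells of a type and less RNA per cell cannot be told apart. The less abundant mRNA of each pair was taken as the level that the RNA allows. Each pair was read alone, with ITGB1, ITGA6 and ITGAV credited in full to every partner, so these levels cannot be added across pairs. ITGA3 with ITGB1 was highest, at 164 CPM per kb ± 6.99 in CDK4KO and 173 CPM per kb ± 8.24 in CDK4WT (SD, n = 4 each). There ITGB1 was the lower of the pair in all 8 libraries. ITGA6 with ITGB1 followed at 146 CPM per kb ± 5.44 in CDK4KO and 131 CPM per kb ± 7.31 in CDK4WT, and ITGA2 with ITGB1 at 86.9 CPM per kb ± 10.4 in CDK4KO and 77.4 CPM per kb ± 5.05 in CDK4WT. ITGA6 with ITGB4, the hemidesmosome receptor, allowed 61.3 CPM per kb ± 10.6 in CDK4KO and 58.2 CPM per kb ± 5.95 in CDK4WT, always through ITGB4. The level of ITGA6 was 2.15 to 2.94 times that of ITGB4 in CDK4KO and 1.88 to 2.59 times in CDK4WT, so ITGA6 mRNA exceeded its dedicated partner in every tumour. ITGA5 with ITGB1 allowed 54.5 CPM per kb ± 5.92 in CDK4KO and 56.01 CPM per kb ± 5.71 in CDK4WT, through ITGA5 in all 8 libraries.

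Pairs with ITGAV were limited to a much lower level. ITGAV with ITGB5 allowed 14.3 CPM per kb ± 2.08 in CDK4KO and 14.6 CPM per kb ± 1.35 in CDK4WT, and ITGAV was the lower mRNA in all 8 libraries. The values of ITGAV with ITGB1 were the same, since ITGAV was the lower mRNA there too in all 8 libraries. ITGAV with ITGB3 allowed the same 14.3 CPM per kb ± 2.08 in CDK4KO, limited by ITGAV, against 12.0 CPM per kb ± 2.44 in CDK4WT, limited by ITGB3. ITGB3 was at 1.05 to 1.76 times ITGAV in CDK4KO libraries and 0.682 to 0.930 times in CDK4WT libraries. The side on which it fell depends on length. Per longest coding transcript 1 CDK4KO library lay below 1, with a range of 0.987 to 1.66 in CDK4KO against 0.643 to 0.876 in CDK4WT. With the same counts divided by unshared bases alone, ITGB3 exceeded ITGAV in all 8 libraries. The genotypes did not overlap in this ratio. A change of length multiplies it by the same factor in all 8 libraries, so the separation cannot depend on the length.

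The alpha chains outnumbered their shared beta chain at the mRNA level. Summed per length, ITGA2, ITGA3, ITGA5, ITGA6 and ITGAV stood at 2.85 to 3.31 times ITGB1 in CDK4KO and 2.65 to 2.86 times in CDK4WT, and the ranges overlapped. ITGA6 alone stood at 0.839 to 1.03 times ITGB1 in CDK4KO, against 0.718 to 0.803 times in CDK4WT, without overlap. Per longest coding transcript the ratio was 0.614 to 0.752 in CDK4KO and 0.526 to 0.588 in CDK4WT, so how near ITGA6 came to ITGB1 depends on length. The sums and ratios in these paragraphs were chosen after their values were seen and carry no test.

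ITGB3, the subunit with the largest log2 fold change of the 9, encodes the beta chain of the vitronectin receptor with ITGAV and of the platelet fibrinogen receptor. Its level was 94.5, 81.5, 70.6 and 61.8 CPM in CDK4KO replicates 1 to 4, against 42.9, 47.9, 67.7 and 51.9 CPM in CDK4WT replicates 1 to 4. Of the CDK4KO tumours, 3 lay above every CDK4WT tumour, and replicate 4 lay below CDK4WT replicate 3. Means were 77.1 CPM ± 14.2 in CDK4KO and 52.6 CPM ± 10.7 in CDK4WT (SD, n = 4 each), with a log2 fold change of 0.55 ± 0.16 (SE; 95% interval 0.20 to 0.91; edgeR quasi-likelihood test, adjusted p = 0.215). DESeq2 gave 0.55 with an adjusted p of 0.0268, and limma voom 0.465 with 0.213. Leaving out each library in turn gave log2 fold changes of 0.44 (without CDK4KO replicate 1) to 0.70 (without CDK4WT replicate 3), and without CDK4KO replicates 1 and 4 together it was 0.53 (adjusted p = 0.149).

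Markers of host cells that can carry ITGB3 were read beside it. Of 15 endothelial markers 11 were measured, and their summed level was 404 to 470 CPM in CDK4KO and 342 to 383 CPM in CDK4WT, without overlap. Their median log2 fold change was 0.135, with 9 positive and 2 negative, and none passed the adjusted edgeR test. At an unadjusted p of 0.05 there were 4 higher (ROBO4, MMRN2, ESAM and PECAM1) and 0 lower. Over all genes 6.64% were higher and 6.33% lower at such a p. ROBO4 and ESAM made up most of the summed level, and in both the genotypes did not overlap. ROBO4 stood at 159 CPM ± 24.0 in CDK4KO and 110 CPM ± 6.64 in CDK4WT (SD, n = 4 each). Its log2 fold change was 0.54 ± 0.10 (SE, edgeR adjusted p = 0.0749), and DESeq2 gave an adjusted p of 0.000196 and limma voom 0.0203. ESAM stood at 160 CPM ± 3.74 in CDK4KO and 140 CPM ± 10.5 in CDK4WT. TIE1, the third most abundant of the 11 markers, had the opposite sign, at 76.6 CPM ± 10.6 in CDK4KO and 87.1 CPM ± 6.49 in CDK4WT (log2 fold change -0.19 ± 0.10, edgeR adjusted p = 0.453). FLT1 also had the opposite sign, at 1.01 CPM ± 0.14 in CDK4KO and 1.14 CPM ± 0.18 in CDK4WT. VWF and ERG, which define endothelium, stood at 1.05 CPM ± 0.22 and 1.05 CPM ± 0.29 in CDK4KO and at 0.955 CPM ± 0.207 and 0.987 CPM ± 0.308 in CDK4WT. CDH5, EMCN, CLDN5 and PLVAP, and all 10 platelet markers, among them PF4 and ITGA2B, were looked for but not found in the count table. The part of host reads in the level of ITGB3 was not tested, and the treatment of mouse reads is not given in the sources used here.

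ITGB5, which encodes another vitronectin-binding partner of ITGAV, had the opposite sign. It stood at 171, 168, 126 and 138 CPM in CDK4KO replicates 1 to 4, against 210.5, 166, 181 and 165 CPM in CDK4WT replicates 1 to 4. The genotypes overlapped, with CDK4KO replicates 3 and 4 lowest of all and CDK4WT replicate 1 highest. Means were 151 CPM ± 22.4 in CDK4KO and 180.5 CPM ± 21.3 in CDK4WT (SD, n = 4 each), and the log2 fold change was -0.26 ± 0.11 (SE; 95% interval -0.51 to -0.01; edgeR, adjusted p = 0.361). The value was -0.18 without CDK4WT replicate 1 and -0.18 without CDK4KO replicate 3.

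The balance of these partners of ITGAV was read from the levels per length, a ratio chosen after its values were seen and given with no test. ITGB3 made up 44.7%, 41.6%, 45.1% and 39.7% of the summed ITGB3 and ITGB5 level per length in CDK4KO replicates 1 to 4, against 23.0%, 29.7%, 35.5% and 31.6% in CDK4WT replicates 1 to 4. Every CDK4KO tumour had a larger share of ITGB3 than every CDK4WT tumour. The sum itself was 35.4 to 48.1 CPM per kb in CDK4KO and 36.6 to 43.4 CPM per kb in CDK4WT, with full overlap. The mean share was 42.8% ± 2.58 in CDK4KO and 30.0% ± 5.21 in CDK4WT (SD, n = 4 each). With the same counts divided by unshared exon bases alone, it was 60.7% ± 2.52 in CDK4KO and 46.7% ± 6.31 in CDK4WT.

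**Figure D3:**
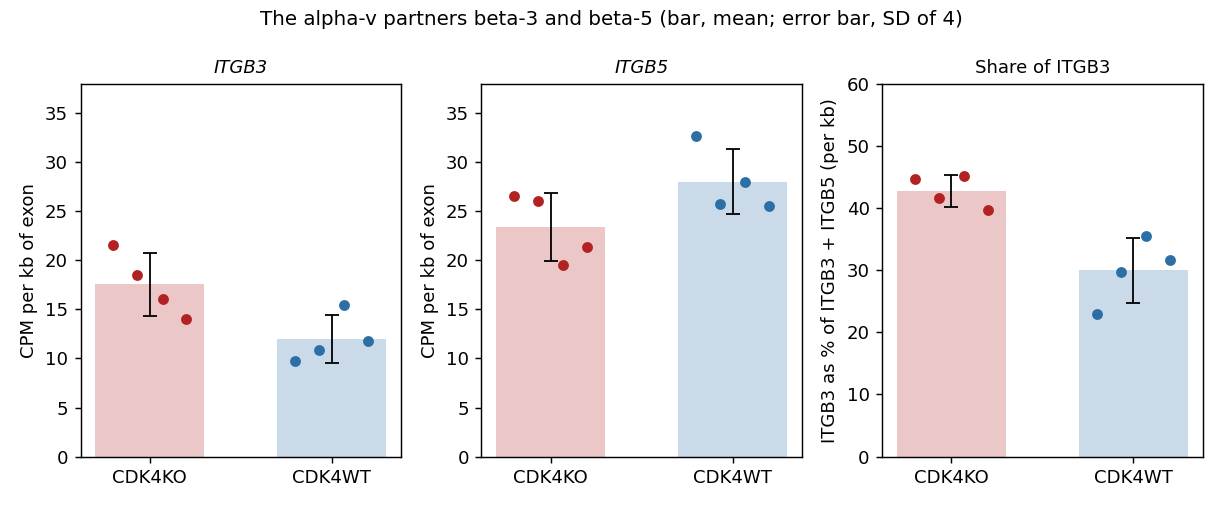
CPM per kb of exon of ITGB3 and ITGB5, and ITGB3 as a percentage of their sum, in 4 CDK4KO and 4 CDK4WT tumours (points, replicates 1 to 4 in order; bar, mean; error bar, SD). The levels of each gene overlap between the genotypes, and the shares, 39.7% to 45.1% in CDK4KO and 23.0% to 35.5% in CDK4WT, do not.

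ITGAV, the alpha subunit of both, stood at 100.2, 137, 126 and 106 CPM in CDK4KO replicates 1 to 4, against 117, 114, 136 and 112 CPM in CDK4WT replicates 1 to 4. CDK4KO tumours included the lowest and the highest of the 8, and the log2 fold change was -0.03 ± 0.10 (SE; 95% interval -0.26 to 0.20; edgeR, adjusted p = 0.928).

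ITGA6, which serves both a focal adhesion receptor with ITGB1 and the hemidesmosome receptor with ITGB4, stood at 940.4, 931, 945.5 and 1037 CPM in CDK4KO replicates 1 to 4. In CDK4WT replicates 1 to 4 it stood at 827.5, 873, 913 and 806 CPM. Each CDK4KO tumour was above each CDK4WT tumour, with replicate 4 the highest. The log2 fold change was 0.17 ± 0.07 (SE; 95% interval 0.025 to 0.32; edgeR, adjusted p = 0.310), a fold of 1.13, and it was 0.13 without CDK4KO replicates 1 and 4 together. Exons of ITGA6 overlap 3 antisense genes over at most 2.66% of their bases each. The splice forms of ITGA6, which differ in their tail, are not told apart by counts per gene.

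ITGB4 had 436, 328, 395 and 499 CPM in CDK4KO replicates 1 to 4, against 402, 349, 379 and 444 CPM in CDK4WT replicates 1 to 4. CDK4KO tumours spanned a wider range that took in all CDK4WT tumours. Its log2 fold change was 0.075 ± 0.12 (SE; 95% interval -0.19 to 0.34; edgeR, adjusted p = 0.832), and it turned to -0.03 without CDK4KO replicate 4. ITGA6 and its dedicated partner thus had log2 fold changes of 0.17 and 0.075, neither of which passed.

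ITGB1, on whose supply most of these receptors depend, varied least. It stood at 1011, 1021, 975 and 928 CPM in CDK4KO replicates 1 to 4, against 1014, 999.9, 1111 and 1033 CPM in CDK4WT replicates 1 to 4. The coefficient of variation was 4.27% in CDK4KO and 4.77% in CDK4WT, against 18.4% in CDK4KO and 20.4% in CDK4WT for ITGB3. Its log2 fold change was -0.08 ± 0.06 (SE; 95% interval -0.22 to 0.06; edgeR, adjusted p = 0.632), so the data allow a fold of 0.859 to 1.04.

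Of its other partners, ITGA2 had 628, 663, 650.4 and 809.5 CPM in CDK4KO replicates 1 to 4, against 606, 569, 666 and 609 CPM in CDK4WT replicates 1 to 4. CDK4KO replicate 4 was highest, and the log2 fold change of 0.17 ± 0.09 (SE; 95% interval -0.03 to 0.36; edgeR, adjusted p = 0.452) was 0.08 without it. ITGA3 had 2345, 1815, 1809 and 1716 CPM in CDK4KO replicates 1 to 4, against 1771, 1993, 1864 and 2018 CPM in CDK4WT replicates 1 to 4. CDK4KO replicate 1 stood far above the other CDK4KO tumours, and the log2 fold change of 0.01 ± 0.10 (SE; 95% interval -0.21 to 0.23; edgeR, adjusted p = 0.987) was -0.10 without it. ITGA5 had 372, 423, 385 and 472 CPM in CDK4KO replicates 1 to 4, against 374, 403, 455 and 465 CPM in CDK4WT replicates 1 to 4, with full overlap and a log2 fold change of -0.04 ± 0.09 (SE; 95% interval -0.245 to 0.17; edgeR, adjusted p = 0.899).

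**Figure D4:**
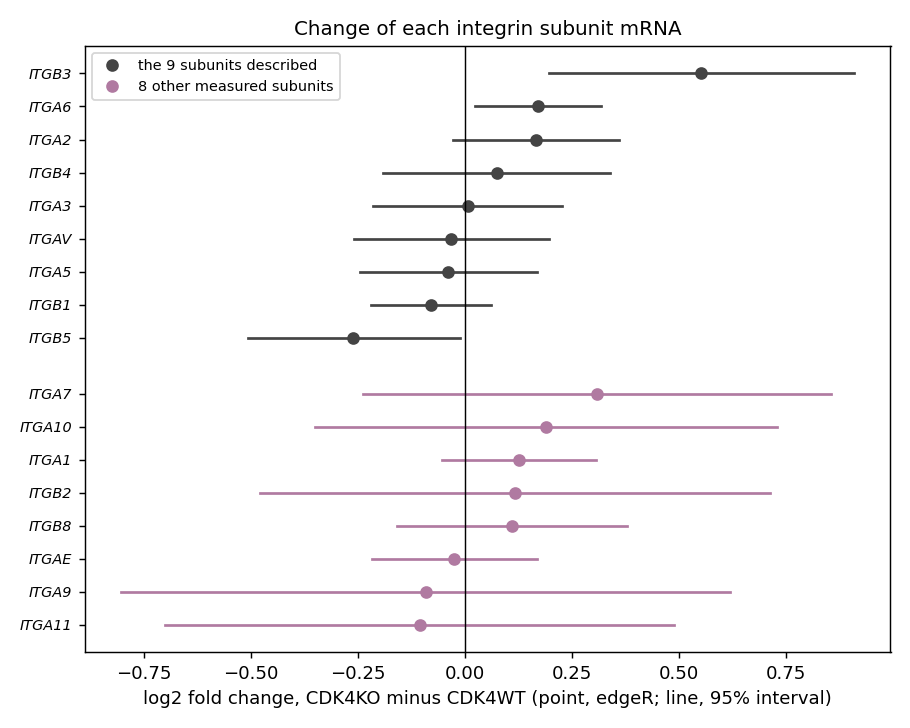
Log2 fold change, CDK4KO minus CDK4WT, of the 9 subunits described and of 8 other measured subunits (points, edgeR) with 95% intervals (lines). The intervals of ITGB3, ITGA6 and ITGB5 leave out 0 before adjustment over all genes, and those of the other 14 subunits include it.

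The 9 genes lie on 6 chromosomes (hg38, GENCODE 29, all annotated as protein-coding). ITGA2 (ENSG00000164171) lies on chromosome 5 from 52989326 to 53094779, ITGA5 (ENSG00000161638) on chromosome 12 from 54395261 to 54419460, ITGB1 (ENSG00000150093) on chromosome 10 from 32900319 to 33005792 and ITGB5 (ENSG00000082781) on chromosome 3 from 124761948 to 124901418. ITGA6 (ENSG00000091409) and ITGAV (ENSG00000138448) are both on chromosome 2, the first at 172427354 to 172506282 and the other at 186590065 to 186680901. ITGB3 (ENSG00000259207), ITGA3 (ENSG00000005884) and ITGB4 (ENSG00000132470) share chromosome 17, ITGB3 at 47253846 to 47311816, ITGA3 at 50055968 to 50090481 and ITGB4 at 75721328 to 75757818. The 20 nearest tested genes of ITGB3 had a median log2 fold change of -0.003, against its own 0.55, those of ITGA6 -0.04 against 0.17, and those of ITGB5 -0.01 against -0.26. Over all 9 subunits the neighbours' medians ran from -0.04 to 0.08.

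Genes whose profile over the 8 libraries was closest to ITGB3 were B3GNT3, a glycosyltransferase, and RAD50, a DNA repair protein. Likeness was the root mean square difference of centred log2 CPM, which was 0.16 and 0.17 for these, against 0.36 for ITGB3's own spread about its mean. Closest to ITGA6 were NACC1 and LSM11, at 0.04 each against an own spread of 0.11. Closest to ITGB5 were BRWD3 and UBXN8, at 0.09 each against 0.21. For the other 6 subunits the 2 nearest genes lay at 0.03 to 0.06.

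Among the other integrin genes, 8 of 17 were measured and none passed (edgeR, 0 at an adjusted p and 0 at an unadjusted p of 0.05, and 0 by DESeq2). ITGA10, a collagen-binding alpha subunit, was the most abundant, at 48.2 CPM per kb ± 18.5 in CDK4KO and 42.25 CPM per kb ± 6.04 in CDK4WT, near the level of ITGA5. CDK4KO replicate 1 had 472 CPM of it, against 220.1 to 296.5 CPM in the other CDK4KO libraries and 231 to 319 CPM in CDK4WT. ITGB8, a further partner of ITGAV, and ITGA1, a collagen receptor subunit, stood at 3.17 CPM per kb ± 0.47 and 2.38 CPM per kb ± 0.27 in CDK4KO and at 2.94 CPM per kb ± 0.40 and 2.18 CPM per kb ± 0.08 in CDK4WT. ITGAE, ITGB2, ITGA7, ITGA9 and ITGA11 had means over the 8 libraries of 2.19, 1.49, 0.518, 0.135 and 0.122 CPM per kb. ITGA7, the main laminin receptor subunit of muscle, had a log2 fold change of 0.31 ± 0.25 (SE; edgeR, adjusted p = 0.632). The 2 of 9 muscle markers measured, DES and ACTA1, summed to 3.96 to 8.57 CPM in CDK4KO and 6.85 to 26.2 CPM in CDK4WT. Their log2 fold changes were -1.33 ± 0.36 and -1.21 ± 0.415, with overlap (edgeR, adjusted p = 0.186 and 0.278; DESeq2, 0.0328 and 0.177; limma voom, 0.357 and 0.554). The part of muscle in ITGA7 was not tested.

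The matrix ligands of these receptors were read next. At an unadjusted p of 0.05, 6.64% of all genes were higher and 6.33% lower in CDK4KO, and 0.0591% passed the adjusted edgeR test. The counts of this list and of each list below stand beside those shares. Of the laminin and basement membrane list, 17 of 20 genes were measured, with a median log2 fold change of 0.01 and 1 gene higher and 2 lower in CDK4KO at an unadjusted p of 0.05. None passed the adjusted test. COL4A2, a basement membrane collagen, stood at 243 CPM ± 38.4 in CDK4KO and 295 CPM ± 18.2 in CDK4WT (SD, n = 4 each), a log2 fold change of -0.28 ± 0.105 (SE; edgeR, adjusted p = 0.303).

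Ligands with an Arg-Gly-Asp motif or bound by ITGAV receptors had a median of -0.06 over 19 of 22 genes. Of these 5 were positive and 14 negative, where 51.2% of all genes were positive. At an unadjusted p of 0.05, 0 were higher and 3 lower. None passed the adjusted test, and VTN and SPP1 were looked for but not found in the count table. EDIL3, a secreted ligand of the ITGAV receptors with ITGB3 and ITGB5, had 60.5, 41.01, 28.1 and 24.9 CPM in CDK4KO replicates 1 to 4, against 102, 71.2, 73.1 and 58.2 CPM in CDK4WT replicates 1 to 4. The genotypes overlapped only between CDK4KO replicate 1 and CDK4WT replicate 4, at a log2 fold change of -0.98 ± 0.29 (SE; edgeR, adjusted p = 0.233). THBS2, a thrombospondin, had -0.78 ± 0.30 (edgeR, adjusted p = 0.318), and FN1, the fibronectin gene, 0.006.

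All 12 collagen ligands were measured, with a median of -0.06, 2 higher and 3 lower in CDK4KO at an unadjusted p of 0.05 and none past the adjusted edgeR test. COL6A2, a collagen VI chain, had 187, 279.7, 98.9 and 173 CPM in CDK4KO replicates 1 to 4, against 66.0, 54.9, 77.01 and 80.2 CPM in CDK4WT replicates 1 to 4, without overlap. Its log2 fold change was 1.41 ± 0.28 (SE; edgeR, adjusted p = 0.118), and DESeq2 gave an adjusted p of 0.00141 and limma voom 0.101. COL6A1, another chain of collagen VI, had 0.59 ± 0.15 with overlap (edgeR, adjusted p = 0.173; DESeq2, 0.00862; limma voom, 0.144). Fibroblast and pericyte markers, 7 of 10 measured, summed to 727 to 1245 CPM in CDK4KO and 837 to 1256 CPM in CDK4WT, with overlap. COL1A1, COL1A2 and COL3A1, shared with the collagen list, made up most of that sum, so it is no separate reading of fibroblasts. CSPG4, PDGFRB, FAP and RGS5 averaged 50.6, 12.2, 8.0 and 2.0 CPM in CDK4KO and 53.1, 10.4, 9.2 and 2.2 CPM in CDK4WT. DCN, LUM and PDGFRA were looked for but not found in the count table. The part of fibroblasts and pericytes was not tested.

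Inside the cell, the integrin activators and inhibitors had a median of 0.07 over 24 of 24 genes, with 3 higher and 0 lower at an unadjusted p of 0.05 and none past the adjusted test. TNS2, a tensin that binds beta tails, had 0.34 ± 0.10, and FERMT3, the blood cell kindlin, 0.38 ± 0.12 at 10.8 CPM ± 1.51 in CDK4KO and 8.29 CPM ± 0.79 in CDK4WT (edgeR, adjusted p = 0.224 and 0.233). TLN1, the main talin, had 0.09. Macrophage and leukocyte markers, 8 of 13 measured, summed to 31.7 to 43.0 CPM in CDK4KO and 30.3 to 40.4 CPM in CDK4WT, and their part in FERMT3 was not tested. Adhesion plaque and signalling genes had a median of 0.05 over 38 of 40, with 29 positive and 9 negative. At an unadjusted p of 0.05, 5 were higher and 1 lower. PDLIM5, an actinin-binding scaffold, had 0.24 ± 0.07 and ARHGEF7, a RAC and CDC42 exchange factor of the GIT complex, -0.19 ± 0.07, and in both the genotypes did not overlap (edgeR, adjusted p = 0.212 and 0.282).

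Hemidesmosome genes, 9 of 9 measured, had a median of 0.02, with 1 higher and 1 lower at an unadjusted p of 0.05 and none past the adjusted test. COL17A1, the collagen XVII that joins the receptor of ITGA6 and ITGB4, had 28.55, 38.2, 31.5 and 31.65 CPM in CDK4KO replicates 1 to 4, against 27.3, 20.95, 24.0 and 19.1 CPM in CDK4WT replicates 1 to 4. The genotypes did not overlap, at a log2 fold change of 0.51 ± 0.12 (SE; edgeR, adjusted p = 0.136; DESeq2, 0.00957; limma voom, 0.0281). PLEC, the plectin that links ITGB4 to keratin, and DST had 0.05 and 0.19. Keratinocyte markers, 6 of 8 measured and COL17A1 among them, summed to 75.7 to 94.0 CPM in CDK4KO and 74.0 to 88.2 CPM in CDK4WT. KRT10 and COL17A1 itself made up most of that sum. KRT5 and KRT14, members of both lists, had the opposite sign with overlap, at log2 fold changes of -1.19 ± 1.03 and -1.15 ± 0.72 (SE, edgeR adjusted p = 0.668 and 0.551). The part of keratinocytes in COL17A1 was not tested.

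Membrane partners of integrins, 21 of 22 measured, had a median of -0.05, with 2 higher and 4 lower at an unadjusted p of 0.05. L1CAM, an adhesion molecule that ITGAV receptors bind, was the 1 member past the adjusted test. It fell to 111 CPM ± 6.33 in CDK4KO, against 164 CPM ± 13.2 in CDK4WT (SD, n = 4 each). The log2 fold change was -0.56 ± 0.07 (SE, edgeR adjusted p = 0.0396), and DESeq2 gave an adjusted p of 9.62e-10 and limma voom 0.00188. The 4 CDK4KO tumours lay at 103 to 118 CPM, all below the CDK4WT tumours at 148.5 to 176 CPM. With 1 library left out edgeR gave a log2 fold change of -0.53 to -0.61 and an adjusted p of 0.0155 to 0.113. The call was thus lost in 6 of 8 such fits, all but those without CDK4KO replicate 1 or 4. SDC4, a syndecan that works with the fibronectin receptor, had -0.34 ± 0.12 (edgeR, adjusted p = 0.270). In the trafficking list, which moves integrins through endosomes, 29 of 31 genes were measured with a median of -0.01 and 0 at an unadjusted p of 0.05. RAB35 and RAB21, small GTPases of integrin recycling and uptake, had 0.13 ± 0.07 and 0.12 ± 0.07 (edgeR, adjusted p = 0.443 and 0.490).

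**Figure D5:**
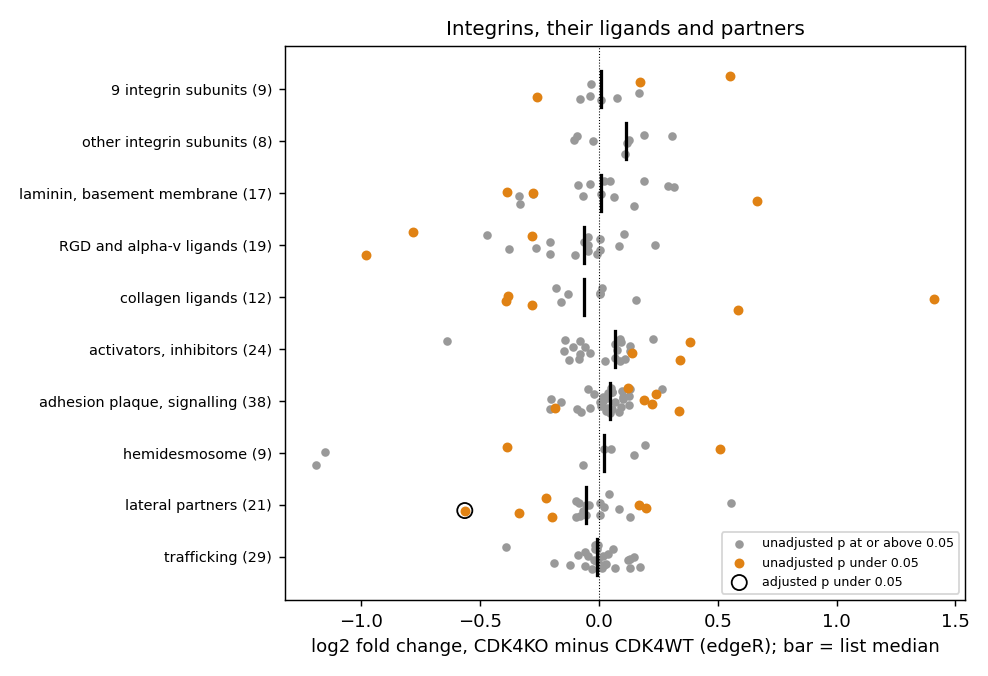
Log2 fold change, CDK4KO minus CDK4WT, of each measured gene in the integrin lists (points; orange where the unadjusted edgeR p is under 0.05, ringed where the adjusted p is), with list medians as bars and the number of measured genes in brackets. Medians lie between -0.06 and 0.11, and L1CAM is the ringed gene.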

How the data were processed

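Per the labels' protocols, Trizol RNA of 4 CDK4KO and 4 CDK4WT tumours went into an mRNA library kit. Raw read counts per Ensembl gene for the 8 tumours were deposited by the authors in 1 table. The submitters' processing notes name cutadapt, STAR 2.7.11a, featureCounts 2.0.4, DESeq2 1.46.0 and hg38. Not given in the sources used here: the annotation release, strand setting, and handling of shared exons and mouse reads. Every gene exceeds 1 CPM in at least 4 libraries, so genes seen in fewer were left out before deposit. CDK4KO columns were matched to replicates through the library names.

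Symbols were found for 13524 of 13546 genes. The main fit used R 4.3.3 and edgeR 4.0.16 (TMM, filterByExpr, which removed 0 genes, robust quasi-likelihood), with Benjamini-Hochberg adjustment over all genes at 0.05. CPM are TMM-scaled, and the log2 prior count was 2. DESeq2 1.42.0, limma 3.58.1 voom, other scalings and filters, a replicate block and each library left out were alternatives. Steps were tested on simulated data. Fold changes are CDK4KO minus CDK4WT, and standard errors and 95% intervals follow from the F statistic.

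The 9 subunits and all lists were chosen with earlier results of these data known, so no p was adjusted over a list alone. Named genes are the subunits, the other measured subunits, the 2 members of each list with the smallest p and the 2 nearest profiles; 1 list gene that the rule names is not reported here. FN1, TLN1, PLEC, DST, and the marker genes named one by one, were chosen after their values were seen.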

Additional observations from a re-analysis of the deposited data

Results flagged for a closer look

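In groups of 4 libraries, a value was marked where its gap to the nearest other library exceeded Dixon's 95% critical share of the group's range, which chance gives in about 1 of 20 groups. Of 64 groups of the named genes, 4 were marked, all in CDK4KO. ITGA3 had 2345 CPM in CDK4KO replicate 1, against 1716 to 1815 CPM in the other CDK4KO libraries. ITGA6 had 1037 CPM in CDK4KO replicate 4, against 931 to 945.5 CPM in the others. ITGB8 had 37.5 CPM in CDK4KO replicate 4, against 50.2 to 52.6 CPM. RAB21, of the trafficking list, had 94.9 CPM in CDK4KO replicate 1, against 112 to 114 CPM. The 4 marks fall on CDK4KO replicates 1 and 4, the libraries with the lowest mean correlations with their genotype, and the cause was not tested.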

How the results depend on the processing

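The count of genes called over the whole table was the least stable value: 8 with all libraries, 14 with library size only, 13 with the replicate block, 315 by DESeq2, 321 by limma voom, 0 to 183 with 1 library left out (183 without CDK4KO replicate 1, and 0 by edgeR without CDK4KO replicate 2 or CDK4WT replicate 4, where 1688 and 1582 genes had an unadjusted p under 0.05), and 447 without CDK4KO replicates 1 and 4 together, an alternative added after seeing the data. The integrin count was 0 in 17 of 18 alternatives and 1 by DESeq2, where ITGB3 (log2 fold change 0.55) passed. At an unadjusted p of 0.05 the count of 3 ranged from 1 to 4 with 1 library left out, and was 1 without CDK4KO replicates 1 and 4. Over the other lists the count of 1 was 4 by DESeq2, 2 by limma voom, 0 to 2 with 1 library left out and 6 without both CDK4KO libraries. ITGA2, ITGA6, ITGB1, ITGB3 and ITGB5 kept their sign in all 18 alternatives, with ITGB3 at 0.44 to 0.70. Subunits near 0 changed sign: ITGA3 to -0.001 (upper-quartile scaling), -0.023 (limma voom), -0.003 (replicate block) and -0.077 (without both CDK4KO libraries), with -0.104 to 0.058 leaving out 1 library. ITGAV turned to 0.13 and ITGB4 to -0.12 without both CDK4KO libraries, and ITGB4 to -0.007 by limma voom. Leaving out 1 library gave -0.109 to 0.007 for ITGA5, -0.114 to 0.036 for ITGAV and -0.026 to 0.172 for ITGB4. Per longest coding transcript the mean levels over 8 libraries were 392 (ITGA3), 267 (ITGB1), 162 (ITGA6), 94.2 (ITGA5), 68.3 (ITGB4), 37.9 (ITGB5) and 16.8 CPM per kb (ITGAV), and over unshared exon bases ITGB3 was 30.5, shifts set by the length alone. The difference in ITGB3 share, 12.8 percentage points, was 10.5 to 14.7 with 1 library left out. Replicate numbers did not pair the libraries (same-number correlations of deviations from the group means were -0.0313, -0.0142, 0.0035 and 0.1943, and 1 of 4 correlated best with its own number). With the replicate block, 0 of the 9 subunits were called and L1CAM had an adjusted p of 0.056. The cause of the other changes was not tested.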
